A study of Homo sapiens with 4 samples.

Results

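HMOX1 encodes heme oxygenase 1, and it was taken here together with 8 genes that are textbook targets of the transcription factor NRF2 or belong to the same heme and iron pathway. The 9 genes were HMOX1, NQO1, GCLM, GCLC, TXNRD1, SRXN1, SLC7A11, FTL and FTH1, out of 33538 genes listed in the files, and all 9 had a row of their own. The set was chosen by name, with HMOX1 in it because its level was higher in APC-knockdown cells at both days in an earlier look at the same data. Its own difference is therefore a description, and the question was whether the other NRF2 and iron genes followed it.

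The study lowered APC in HCEC 1CT cells to look at early steps of colorectal cancer by single-cell RNA sequencing. HCEC 1CT is an immortalised line of human colonic epithelial cells, made with TERT and CDK4. One library was made from each of 4 cultures: shScr (a scrambled shRNA) and shAPC (an shRNA against APC), each harvested at day 3 and at day 7 after viral transduction. All 4 cultures were selected with puromycin and grown in a medium with EGF, hydrocortisone, insulin, selenite, transferrin and low serum. Each group held 1 library, so there was no replicate error and no test. Every interval below is a 95% interval for counting error only. The files of the shScr libraries name Cell Ranger 3.0.2 and those of the shAPC libraries 3.0.0, so program version and shRNA cannot be told apart.

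NRF2, the product of NFE2L2, is held at a low level by KEAP1, which hands it to the CUL3 and RBX1 ubiquitin ligase. Oxidants and electrophiles release it, and with a small MAF protein it binds antioxidant response elements near genes for glutathione synthesis, thioredoxin, NADPH supply and iron storage. HMOX1 cleaves heme into biliverdin, carbon monoxide and iron. It is repressed at such elements by BACH1, which heme displaces, and it also responds to other stress factors. Ferritin, built from the chains encoded by FTH1 and FTL, stores the iron, and its translation is set by iron regulatory proteins, so its mRNA level is not its protein level.

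The letters that NRF2 is known to read are shown because they mark the members whose start sites carry them. RefSeq promoter windows (GRCh38.p14, 250 bases before to 50 bases after the start) were found for 6 of the 9 members, in 7 windows. HMOX1, SLC7A11 and FTH1 were not among them. The core searched was TGACNNNGC on both strands, and 13.3% of all 35116 windows held it. Of the 6 members, GCLM and TXNRD1 held it, and NQO1, GCLC, SRXN1 and FTL did not hold these letters in this window. Below, 30 bases around each match are given 5′ to 3′ on the gene's strand with the match in capitals. GCLM and the last 2 TXNRD1 stretches carry it on the opposite strand.
GCLM, chr1:93909445-93909474, minus strand, 34 bases before the start: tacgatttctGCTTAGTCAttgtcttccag
TXNRD1, chr12:104215670-104215699, plus strand, 99 bases before the first start: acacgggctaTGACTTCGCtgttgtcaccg
TXNRD1, chr12:104215761-104215790, plus strand, 8 bases before the first start: gcgtccttcgGCTCCGTCAgttcccacagg
TXNRD1, chr12:104286920-104286949, plus strand, 102 bases before a second start: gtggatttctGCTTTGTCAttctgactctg
The fifth stretch is from FTL and holds the loop letters CAGTGN of the iron-responsive element, to which iron regulatory proteins bind in the ferritin mRNA. The same letters stood on the transcribed strand of the 50 bases after the start in 6.36% of all windows.
FTL, chr19:48965329-48965358, plus strand, loop from base 39 after the start: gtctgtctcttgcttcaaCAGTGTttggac

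Between 788 and 2600 cells per library passed the limits of 200 genes, 500 UMIs and under 5% mitochondrial UMIs, with 28451455 to 39797418 UMIs in all. Median UMIs per cell were 35109 and 49685.5 in shScr and shAPC at day 3 and 1330 and 21029.5 at day 7. The mitochondrial limit left out 23.4% to 28.8% of the barcodes in 3 libraries and 51.1% in shAPC at day 7. Between 1 and 19 cell barcodes were shared by each pair of libraries, most of them between both day 3 libraries. APC was at 16.1 and 5.52 CPM (UMIs scaled to a library total of 1e6) in shScr and shAPC at day 3 and at 19.1 and 6.61 CPM at day 7. Of the 9 colon epithelium markers none reached 20 CPM in any library, KRT20 and CDX2 were at 0 throughout, EPCAM, CDH1, CDX1 and VIL1 had at most 0.0703 CPM, and KRT8 was highest with 9.57 to 19.4 CPM. The defining transcripts of the labelled tissue were thus absent or rare, while the 6 mesenchyme markers, with VIM at 4010 to 5303 CPM, all reached 20 CPM in at least 1 library. The 6 macrophage and leukocyte markers summed to 0.281 to 1.29 CPM and the 6 erythroid markers to 0.276 to 1.60 CPM, so transcripts of those HMOX1-rich or heme-rich cells were near 0.

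HMOX1 (ENSG00000100292, protein coding, chromosome 22 at 35380361 to 35394214, plus strand, GRCh38 with GENCODE 44) was the member with the largest difference between the shRNAs. At day 3 shScr held 900 UMIs of it and shAPC 2723, or 22.6 CPM (21.2 to 24.1) and 77.9 CPM (75.02 to 80.9). The day 7 libraries held 429 and 1239 UMIs, or 13.7 CPM (12.5 to 15.1) and 43.5 CPM (41.2 to 46.0). Both shAPC libraries stood above both shScr libraries, and no interval overlapped another. The level was highest in shAPC day 3, followed by shAPC day 7, then shScr day 3, with shScr day 7 lowest.

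As a log2 ratio of shAPC to shScr, day 3 gave 1.78 (1.68 to 1.90) and day 7 gave 1.66 (1.51 to 1.83). Over all genes that reached 20 CPM in either library of a day, the median log2 ratio was 0.28 for the 5175 genes of day 3 and -0.10 for the 4573 of day 7. TMM scaling set the day 3 median at -0.13 instead, so each ratio is given below minus the median of its day and called the relative log2 ratio. For HMOX1 this came to 1.51 at day 3 (1.40 to 1.62), which is 2.85-fold, and to 1.76 at day 7 (1.60 to 1.92), which is 3.39-fold. Its value lay above that of 98.9% of the genes tested at day 3 and 99.9% at day 7. Within shScr the day 7 library had a relative log2 ratio to the day 3 library of -0.77 (-0.94 to -0.60), and within shAPC of -0.50 (-0.60 to -0.41), so the level was lower at day 7 under both shRNAs. The all-gene medians of these contrasts were 0.05 and -0.34.

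**Figure D1:**
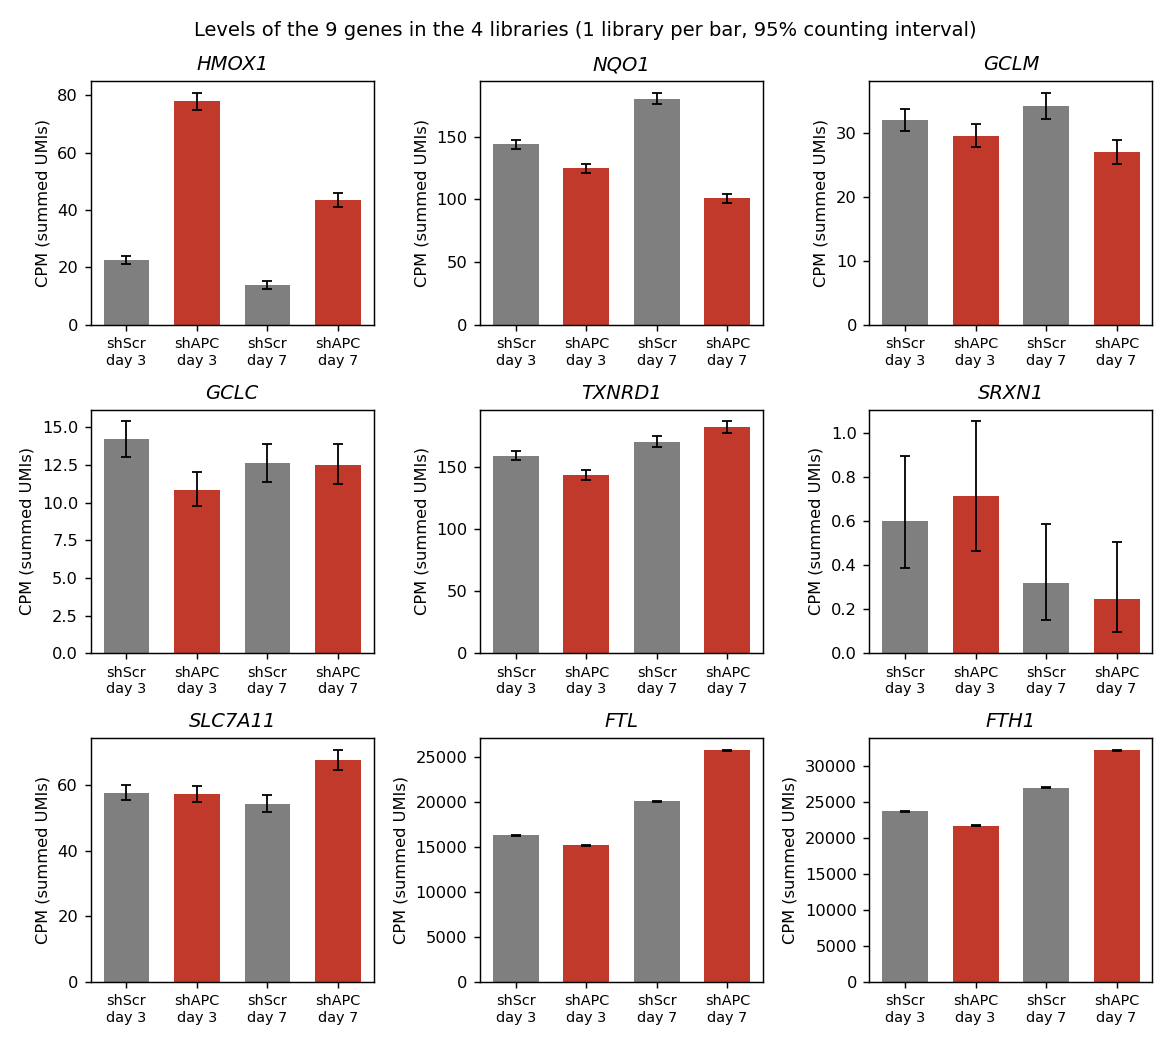
Levels of the 9 genes in CPM of summed UMIs, one panel per gene, with grey bars for shScr and red bars for shAPC at day 3 and day 7, 1 library per bar, and 95% counting intervals as error bars. HMOX1 stands at 77.9 and 43.5 CPM in shAPC against 22.6 and 13.7 CPM in shScr, NQO1 is lowest in shAPC at day 7 with 101.0 CPM, and both ferritin genes are highest in shAPC at day 7.

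Counted as at least 1.5-fold from the median of all genes, HMOX1 was the only member higher at either day. Of the 7 members with at least 20 CPM, 1 was higher at day 3 against 5.93% of all genes tested, and 0 were lower against 4.99%. At day 7, 1 was higher against 4.07% and 1, NQO1, was lower against 5.2%. The NQO1 call was lost with all barcodes (-0.44) and with a mitochondrial limit of 10% (-0.47). At both days 1 member was higher against 0.719% of genes tested at both, and 0 were lower against 2.27%. HMOX1 was chosen on this contrast, so nothing is read from its own count. The median relative log2 ratio of the other 8 genes was -0.40 at day 3 and 0.14 at day 7, where the median of all genes is 0 by construction. With the pseudocount of 1 CPM used for calls, all 8 lay below the median of all genes at day 3 and 6 lay above it at day 7, SRXN1 with 10 and 7 UMIs only through the pseudocount. At day 3 SRXN1, with 24 and 25 UMIs, had -0.03 (-0.90 to 0.84) without the pseudocount. With it, a gene without UMIs lies at -0.28 at day 3 and 0.10 at day 7. When CPM was averaged over cells, so that each cell weighed the same, the medians of the other 8 genes were -0.18 and 0.012.

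**Figure D2:**
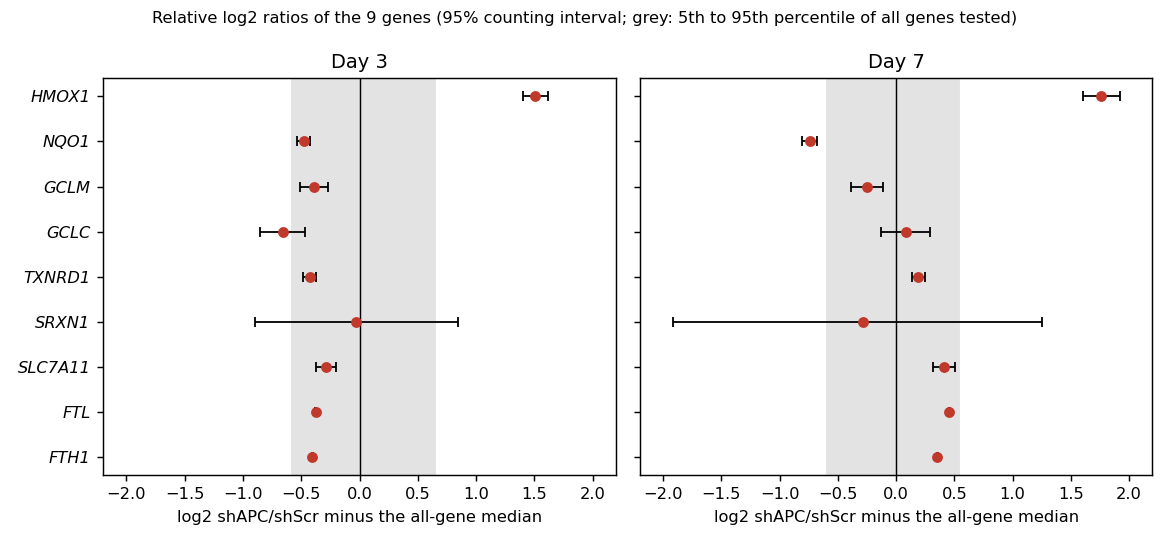
Relative log2 ratio of shAPC to shScr for the 9 genes at day 3 (left) and day 7 (right), with 95% counting intervals, a line at the median of all genes and a grey band from the 5th to the 95th percentile of all genes tested. HMOX1 lies right of the band at both days, NQO1 left of it at day 7 and GCLC left of it at day 3, and the remaining values lie inside.

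NQO1 (ENSG00000181019, chromosome 16 at 69706996 to 69726668, minus strand) encodes a quinone reductase that is widely used as a readout of NRF2. It was at 143.9 CPM in shScr and 124.9 in shAPC at day 3, and at 180.5 and 101.0 at day 7. Both shAPC libraries were thus below both shScr libraries, with no overlap of intervals, so the order of the shRNAs was the reverse of that seen for HMOX1. Relative to all genes, NQO1 had a log2 ratio of -0.48 at day 3 (-0.54 to -0.42) and of -0.74 at day 7 (-0.81 to -0.68), the latter 1.67-fold lower. Barcodes of high mitochondrial content moved the day 7 value, to -0.44 with all barcodes and -0.47 with a mitochondrial limit of 10%.

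GCLM and GCLC encode the modifier and catalytic subunits of glutamate-cysteine ligase, which makes the first step of glutathione synthesis. GCLM (ENSG00000023909, chromosome 1 at 93885199 to 93909456, minus strand) was at 32.0 CPM in shScr and 29.6 in shAPC at day 3, and at 34.2 and 27.0 at day 7. Each level overlapped its neighbour in the order, although the shAPC and shScr intervals of day 7 did not meet. The relative log2 ratios of GCLM were -0.39 (-0.51 to -0.27) and -0.25 (-0.38 to -0.11). GCLC (ENSG00000001084, chromosome 6 at 53497341 to 53616970, minus strand) was under 20 CPM throughout, at 14.2 and 10.9 CPM at day 3 and 12.6 and 12.5 at day 7. At day 3 GCLC had 565 and 380 UMIs and a relative log2 ratio of -0.66 (-0.85 to -0.47), and at day 7 its value of 0.08 (-0.13 to 0.29) had an interval that included 0. In cells thinned to 2000 UMIs, where few GCLC and GCLM UMIs remained, the day 7 values were 1.24 for GCLC and -0.81 for GCLM.

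TXNRD1 (ENSG00000198431, chromosome 12 at 104215779 to 104350307, plus strand) encodes thioredoxin reductase 1, a selenoprotein that keeps thioredoxin reduced. It stood at 158.9 CPM in shScr and 142.9 in shAPC at day 3, and at 170.2 and 181.6 at day 7. None of these 4 intervals overlapped, and shAPC went from the lowest level at day 3 to the highest at day 7. Its relative log2 ratios were thus of opposite sign, -0.43 at day 3 (-0.48 to -0.38) and 0.19 at day 7 (0.13 to 0.24). SRXN1 (ENSG00000271303, chromosome 20 at 646615 to 653200, minus strand) encodes sulfiredoxin, which repairs overoxidised peroxiredoxins, and it was close to undetected. With 24 and 25 UMIs at day 3 and 10 and 7 at day 7 in shScr and shAPC, its relative log2 ratios had intervals of -0.90 to 0.84 and -1.91 to 1.26, and a smaller difference was not detectable at this depth. Its value ranged over the alternatives from -0.11 to 1.21 at day 3 and from -2.03 to -0.0094 at day 7. GCLC, TXNRD1 and SRXN1 overlap other genes on the same strand, so reads in the shared stretches may not have been counted for them.

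SLC7A11 (ENSG00000151012, chromosome 4 at 138164097 to 138242349, minus strand) encodes the cystine carrier that supplies cysteine for glutathione. Its levels were 57.8 CPM in shScr and 57.3 in shAPC at day 3, and 54.4 and 67.8 at day 7. The shAPC library of day 7 stood above the rest, whose neighbouring intervals overlapped. On the relative scale SLC7A11 had -0.29 at day 3 (-0.37 to -0.20) and 0.41 at day 7 (0.32 to 0.51). Its day 3 sign depended on the summary, since averaging CPM over cells gave 0.11 and thinning cells to 2000 UMIs gave 0.0065.

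The ferritin genes were among the most abundant transcripts of these cells. FTH1 (ENSG00000167996, chromosome 11 at 61959718 to 61967634, minus strand), the heavy chain with ferroxidase activity, was at 23732 CPM in shScr and 21714 in shAPC at day 3, and at 27008 and 32249 at day 7. FTL (ENSG00000087086, chromosome 19 at 48965309 to 48966879, plus strand), the light chain, was at 16290.3 and 15189.9 CPM at day 3 and at 20103.5 and 25798 at day 7. Both genes had the same order of libraries, from shAPC day 7 down through shScr day 7 and shScr day 3 to shAPC day 3, with no overlap of counting intervals. Their relative log2 ratios were -0.40 for FTH1 and -0.38 for FTL at day 3, and 0.35 and 0.46 at day 7. With CPM averaged over cells the day 3 values were -0.14 and -0.145. In the barcodes over the mitochondrial limit the day 7 values were -0.09 and 0.01. Both genes have processed pseudogenes of near-identical sequence, so their counts are uncertain.

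Together FTH1 and FTL made up 4.00% and 3.69% of all UMIs in shScr and shAPC at day 3 and 4.71% and 5.80% at day 7. FTH1 UMIs per FTL UMI were 1.46 and 1.43 at day 3 and 1.34 and 1.25 at day 7, so the light chain took a larger share at day 7 in both shRNAs. Within shAPC the day 7 library exceeded the day 3 library by a relative log2 ratio of 1.10 for FTL and 0.91 for FTH1, and within shScr by 0.25 and 0.14. Every cell thinned to 2000 UMIs held UMIs of both. The median thinned cell held 35 and 36 FTH1 UMIs in shScr and shAPC at day 3 and 41 and 53 at day 7, and the 10th and 90th percentiles were 21.6 and 115 in shAPC at day 7. For FTL the medians were 24 and 25 at day 3 and 29 and 39 at day 7. At day 3 the medians of the shRNAs differed by 1 UMI for both genes. Spearman's rho of FTH1 with FTL across thinned cells was 0.73 (899 cells) in shScr and 0.68 (673 cells) in shAPC at day 3, and 0.80 (1198 cells) and 0.78 (1087 cells) at day 7. It is a description over cells that share a library and a fixed total.

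HMOX1 was seen in a minority of cells thinned to 2000 UMIs, a depth at which a cell without a UMI may still express it. Since depth differed between libraries, each cell was thinned to 2000 UMIs, which left out 217 shScr and 115 shAPC cells of day 3 and 1402 shScr and 391 shAPC cells of day 7 that were shallower. At that depth 36 of 899 shScr cells held an HMOX1 UMI at day 3, 4.00% (exact binomial 95% interval 2.82% to 5.50%), against 73 of 673 shAPC cells, 10.8% (8.60% to 13.4%). At day 7 it was 24 of 1198 shScr cells, 2.00% (1.29% to 2.97%), against 81 of 1087 shAPC cells, 7.45% (5.96% to 9.18%). The shAPC share was 6.84 percentage points higher at day 3 and 5.45 higher at day 7, and the intervals of the shRNAs did not overlap at either day. Without thinning the shares were 33.0% and 54.9% at day 3 and 8.0% and 29.5% at day 7, with the lowest share in the shallowest library. The line holds 1 cell type, so there was no cell type lacking HMOX1 to set a background share, and free RNA in droplets was not tested. Most positive cells held 1 UMI. Cells with at least 3 numbered 0 and 6 in shScr and shAPC at day 3 and 1 and 3 at day 7, and the highest cell held 5 (shAPC day 7).

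**Figure D3:**
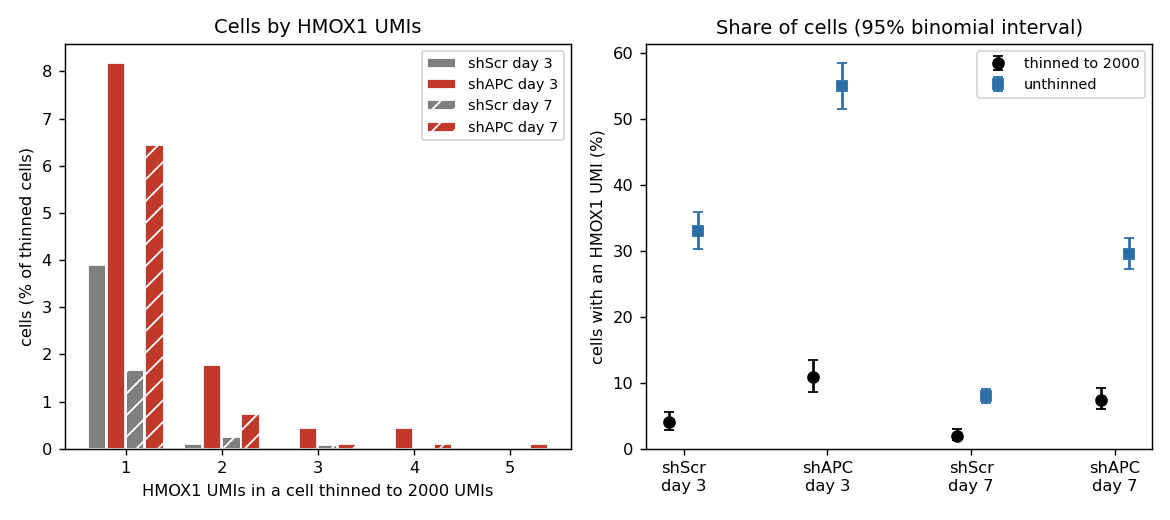
Left, percent of cells thinned to 2000 UMIs that held 1 to 5 HMOX1 UMIs, in grey for shScr and red for shAPC, plain for day 3 and hatched for day 7. Right, share of cells with an HMOX1 UMI in each library, thinned (black circles) and unthinned (blue squares), with exact 95% binomial intervals; the thinned shAPC shares of 10.8% and 7.45% lie above the shScr shares of 4.00% and 2.00%.

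The thinned shares of the other members did not differ in one direction. NQO1 was seen in 24.1% and 19.0% of shScr and shAPC cells at day 3 and in 27.0% and 18.7% at day 7, with separate intervals at day 7. TXNRD1 was in 23.7% and 20.1% at day 3 and 27.1% and 25.5% at day 7, and its intervals overlapped at both days. SLC7A11 was in 7.45% and 8.32% at day 3 and 8.26% and 11.2% at day 7, GCLM in 5.56% and 4.61% and then 6.84% and 3.77%, and GCLC in at most 2.48%. The GCLM intervals were also separate at day 7 (5.48% to 8.43% in shScr, 2.72% to 5.08% in shAPC). SRXN1 was in at most 0.297%, and in 0 of 1087 shAPC cells at day 7, which allows up to 0.339% of cells with a UMI at that depth (exact upper limit). Unthinned, 7 of 1478 cells of that library held one, 0.474%.

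Cells with an HMOX1 UMI were set against the rest of the same library at the same thinned depth. FTH1 was higher in the HMOX1-positive cells in all 4 libraries, by a log2 ratio of 0.08 (0.01 to 0.15) in shScr day 3, 0.38 (0.33 to 0.43) in shAPC day 3, 0.53 (0.47 to 0.60) in shScr day 7 and 0.18 (0.14 to 0.21) in shAPC day 7. For FTL the ratios were -0.09, 0.30, 0.68 and -0.01 in the same order, so the light chain was higher in the positive cells of 2 libraries. SLC7A11 was higher in those of shAPC day 7, with 129.6 against 59.1 CPM, a log2 ratio of 1.13 (0.39 to 1.81), and its interval included 0 in the other libraries. For NQO1 and TXNRD1 the intervals included 0 in every library, and GCLM, GCLC and SRXN1 had at most 4 UMIs in any positive set. These sets held 24 to 81 positive cells, the cells of 1 library are not replicates, and the intervals leave out the spread between cells.

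**Figure D4:**
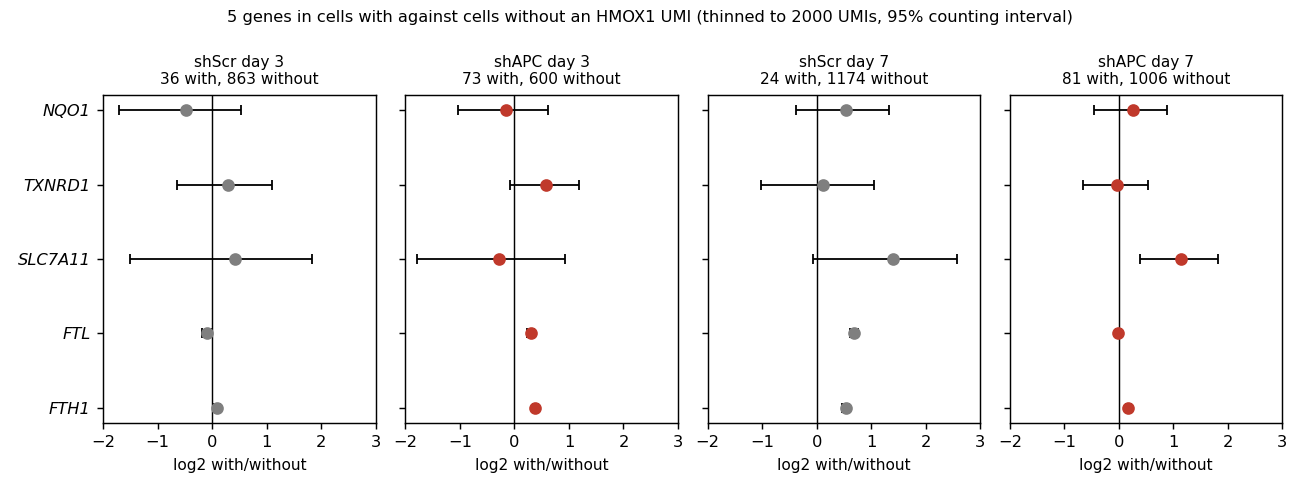
Log2 ratio of the level in cells with an HMOX1 UMI to that in cells without one, for NQO1, TXNRD1, SLC7A11, FTL and FTH1, one panel per library with its cell numbers, all cells thinned to 2000 UMIs, bars giving 95% counting intervals. FTH1 lies right of 0 in all 4 panels, SLC7A11 lies clear of 0 at shAPC day 7, and NQO1 and TXNRD1 span 0 throughout.

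The shAPC library of day 3 also held cells with transcripts of the stress factor ATF3. At thinned depth 23 of its 673 cells had an ATF3 UMI, against 4 to 14 cells in the shScr libraries and 3 in shAPC day 7. Among cells without one, HMOX1 was at 20.7 CPM in shScr and 71.5 in shAPC at day 3, and at 11.0 and 42.9 at day 7. The relative log2 ratios there were 1.60 (1.03 to 2.19) and 2.06 (1.42 to 2.75), beside 1.64 and 1.996 in all thinned cells. Cells with an ATF3 UMI held only 0 and 7 HMOX1 UMIs in shScr and shAPC at day 3 and 3 and 5 at day 7. Their HMOX1 levels were 0 and 152.2 CPM at day 3 and 107.1 and 833.3 CPM at day 7. Few cells show an ATF3 UMI at this depth, so the remaining cells may still express it, and its part in the result was not tested.

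Among the NRF2 regulators, 2 of the 8 genes with at least 20 CPM were at least 1.5-fold higher at day 3 (all genes tested, 5.93%) and 0 of 7 at day 7 (4.07%), and none was lower (4.99% and 5.2%). These shares over all genes are the background for each list below. A gene entered where either library of a day reached 20 CPM, so some entered only through the library where they were high. Levels for this and the following lists were compared by the relative log2 ratio with a pseudocount of 1 CPM. NFE2L2, the NRF2 gene itself, went from 76.0 CPM in shScr to 144.5 in shAPC at day 3 (0.64) and from 69.9 to 85.8 at day 7 (0.39). MAFF, a small MAF partner, was higher at day 3 with 11.5 against 29.9 CPM (1.03) but not at day 7 with 11.9 against 8.47 CPM (-0.35). SQSTM1, which can sequester KEAP1, had values of 0.28 and -0.02, and RBX1, of the ligase that degrades NRF2, -0.34 and -0.38. KEAP1 (0.02 and 0.17) and BACH1 (0.25 and -0.11) were added for their roles after their values were seen.

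Of the glutathione and thioredoxin genes, 1 of 11 was at least 1.5-fold higher at day 3, 0 were higher at day 7 and 1 was lower at day 7. The higher one was SLC3A2, the heavy chain that carries SLC7A11 to the membrane, at 51.4 CPM in shScr and 246.9 in shAPC at day 3 (1.97), but 62.4 and 49.6 at day 7 (-0.23). Its partner SLC7A11 had 57.8 and 57.3 CPM at day 3, so the 2 chains of the carrier differed between the shRNAs by unlike amounts. GLRX, a glutaredoxin, was lower at day 7 with 486.6 against 299.2 CPM (-0.60). TXN, the thioredoxin, had values of -0.01 and -0.36, and GPX4, which reduces lipid peroxides, -0.47 and 0.18.

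The 6 NADPH and pentose phosphate genes held 0 calls at either day. All 6 lay below the median of all genes at day 3 (list median -0.25) and 5 lay above it at day 7 (0.21). TKT, a transketolase, had -0.21 and 0.31, and TALDO1, a transaldolase, -0.35 and -0.29. Among the other NRF2 targets, 1 of 6 was at least 1.5-fold higher at day 3 and 0 of 4 at day 7. It was AKR1C1, an aldo-keto reductase, at 8.54 and 29.6 CPM at day 3 (1.40) and 11.4 and 16.7 at day 7, where it was under 20 CPM (0.61). AKR1C1 has close paralogs, so its counts are uncertain. AKR1B1, an aldose reductase, had 0.24 and -0.17, and CBR1, a carbonyl reductase, 0.14 and -0.06.

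In the heme list, 1 of 8 genes was at least 1.5-fold higher at day 3 and 0 of 6 at day 7. It was ALAS1, the first enzyme of heme synthesis, at 12.4 and 25.04 CPM at day 3 (0.68) and 12.9 and 12.4 at day 7 (0.05). UROS and UROD, enzymes of the same pathway, had -0.29 and 0.28 at day 3 and 0.02 and 0.15 at day 7. Among the iron genes, 0 of 10 were at least 1.5-fold higher at either day and 1 was lower at day 3. CYBRD1, a ferric reductase, was at 69.9 CPM in shScr and 46.0 in shAPC at day 3 (-0.87) and at 70.5 and 49.5 at day 7 (-0.41). PCBP1 and PCBP2, which deliver iron to ferritin and also bind RNA, had -0.11 and -0.45 at day 3 and 0.03 and 0.04 at day 7.

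Over the 6 lists of NRF2 regulators, glutathione, NADPH, other targets, heme and iron, 5 of 49 genes were at least 1.5-fold higher at day 3, where 5.93% of all genes were, and 0 of 44 at day 7, where 4.07% were. The lists had 1 gene lower at each day, and their joint median was -0.11 at day 3 and 0.00 at day 7. The 5 genes that were higher with HMOX1 at day 3 were NFE2L2, MAFF, SLC3A2, AKR1C1 and ALAS1. Of these, MAFF, AKR1C1 and ALAS1 reached 20 CPM only in shAPC, so they entered the count through the rise that it counts. No gene of these lists was at least 1.5-fold higher at both days with at least 20 CPM. AKR1C1 was past 1.5-fold at both days (1.40 and 0.61), but its day 7 levels of 11.4 and 16.7 CPM were under that minimum. Other genes under it were past 1.5-fold higher at day 7 alone. With the pseudocount these were SLC40A1 (1.69), TRIM16L (0.98), AKR1B10 (0.67), TRIM16 (0.66) and EPHX1 (0.63). AKR1C2 (-0.75) and SLC39A8 (-0.64), also under the minimum, were past 1.5-fold lower at day 7.

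**Figure D5:**
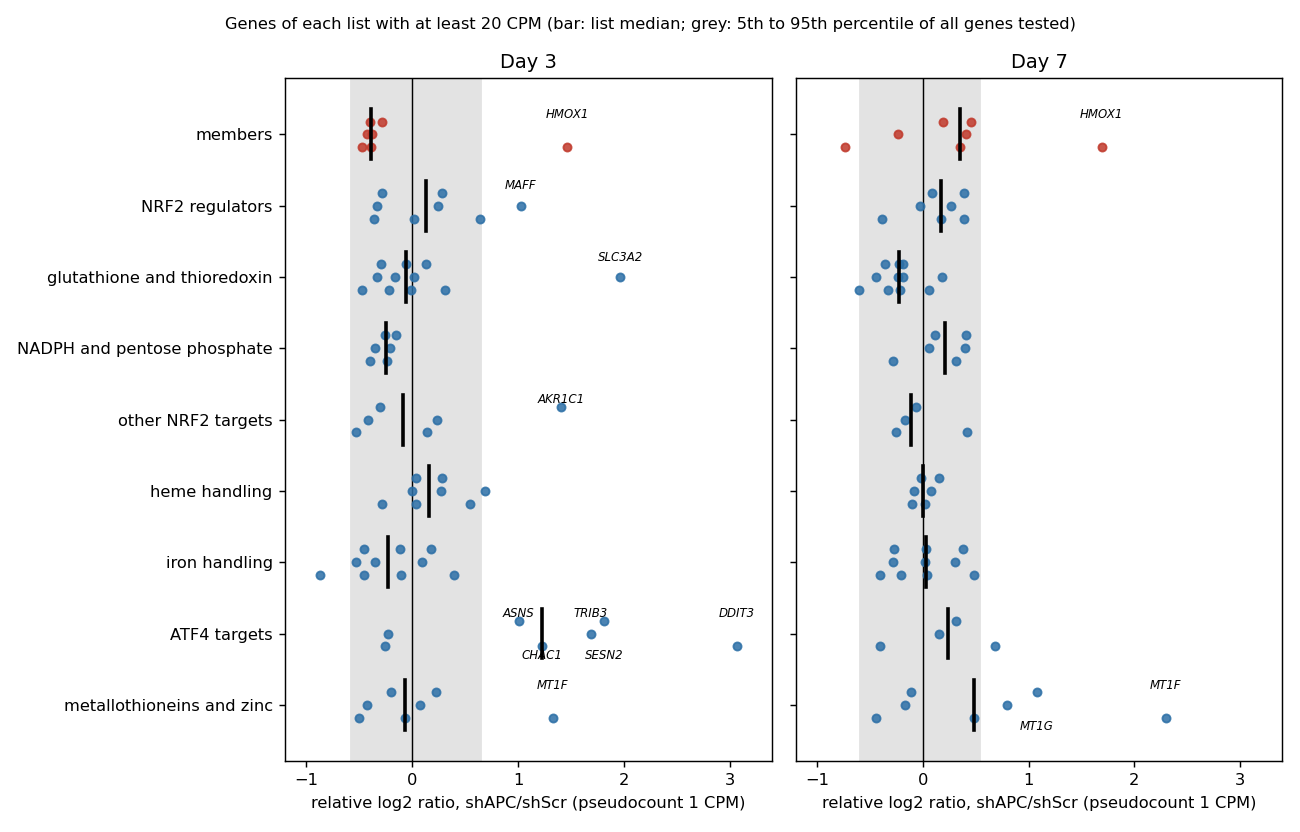
Relative log2 ratio of shAPC to shScr for the genes of each list with at least 20 CPM, at day 3 (left) and day 7 (right), with black bars for list medians, a grey band from the 5th to the 95th percentile of all genes tested, and names where the value exceeds 1. HMOX1 stands apart from the other members at both days; at day 3 SLC3A2, AKR1C1, MAFF, ALAS1, MT1F and 5 ATF4 targets also lie above the band and CYBRD1 below it, and at day 7 the genes beyond 1 are HMOX1, MT1F and MT1G.

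A list of ATF4 targets was set beside these. ATF4 drives the response to amino acid shortage and other stresses, and SLC7A11 and SLC3A2 are among its known targets. At day 3, 5 of 7 were at least 1.5-fold higher, against 5.93% of all genes, with a median of 1.22. All 5 were under 20 CPM in shScr and reached that minimum only through shAPC, as SESN2 also did at day 7. The list was chosen with earlier results of these data known, so nothing is read from its count. DDIT3, the stress factor CHOP, went from 16.6 to 177.6 CPM (3.07), SESN2 from 12.7 to 57.1 (1.81), TRIB3 from 16.6 to 67.9 (1.69) and CHAC1, which degrades glutathione, from 8.90 to 27.0 (1.22). At day 7, 1 of 4 was higher, SESN2, with 15.2 against 23.3 CPM (0.68), and DDIT3 had 48.4 and 34.0 CPM (-0.40). ATF4 itself had -0.23 and 0.15.

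Metallothioneins are metal-binding proteins that respond to zinc and to stress. Their list, which also holds the zinc gene SLC30A1, had 1 of 7 genes higher at day 3 and 3 of 7 at day 7. MT1F was at 13.9 and 44.2 CPM at day 3 (1.33) and 13.7 and 66.8 at day 7 (2.30). MT1G had -0.20 and 1.08, and MT1X 0.07 and 0.80. The abundant MT2A had -0.50 and -0.11 and MT1E -0.43 and -0.17. The metallothioneins are near-identical family members, so their counts are uncertain.

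The genes whose pattern was most like that of HMOX1 were found by Euclidean distance of log2(CPM + 1), centred over the 4 libraries, among 5299 genes. They were KRT34, KRTAP1-5, BBC3, MGAT4B and INHBA, with distances of 0.35 to 0.68. KRT34, a hair-type keratin, was at 11.7 CPM in shScr and 50.9 in shAPC at day 3, and at 10.2 and 28.6 at day 7. KRT34 and KRTAP1-5 belong to families of similar genes, so their counts are uncertain. None was a member or on the NRF2, heme and iron lists. Only the 5 nearest genes were named, and the lists held only 76 genes beside the 5299 ranked, so nothing is read from this. Of the other members that were ranked, SLC7A11 came nearest at rank 2930, and NQO1 was at rank 5121, among the genes least like HMOX1. GCLC and SRXN1 were under 20 CPM in every library and were not ranked.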

How the data were processed

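Droplet 3′ single-cell RNA sequencing gave 4 libraries, 1 per group. The deposited values are UMI counts per gene and barcode that the authors made with Cell Ranger and STAR against GRCh38 (file headers: Cell Ranger 3.0.2 for shScr and 3.0.0 for shAPC; the labels give kit version 2, the methods version 3, and retroviral against lentiviral delivery). Barcodes with at least 200 genes, 500 UMIs and under 5% UMIs of 13 mitochondrial genes were kept; no doublet caller was run. Counts were summed per library and divided by total UMIs (CPM). Intervals are exact (Poisson, conditional binomial, Clopper-Pearson; 95%) and cover counting error only. Genes needed 20 CPM in 1 of 2 libraries, and a call was at least 1.5-fold from their median log2 ratio with a pseudocount of 1 CPM. Member intervals used no pseudocount. Cells were thinned with seed 1. Python 3.11.15, numpy 2.4.6, scipy 1.17.1 and R 4.3.3 (edgeR 4.0.16, DESeq2 1.42.0, for size factors) were used, and the steps were tested on simulated data. Members and lists were chosen with earlier results of these data known. Named genes were all members, and per list up to 4 genes past 1.5-fold and the 2 most abundant. Alternatives changed the scaling, barcode limits, thinning, cell weighting, minimum level and pseudocount. The study's ComBat step was not applied, because library and group coincide. GPX1 was on a list but was not analysed here.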

Additional observations from a re-analysis of the deposited data

Results flagged for a closer look

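For 4 members the relative log2 ratio of shAPC to shScr was below 0 at day 3 and above 0 at day 7, with counting intervals on opposite sides of 0. From day 3 to day 7 it went up by 0.62 for TXNRD1, 0.70 for SLC7A11, 0.83 for FTL and 0.76 for FTH1. With 1 library per group these differences between days were not tested. The day 3 sign of SLC7A11 turned under 2 settings given below.

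Barcodes with at least 5% mitochondrial UMIs, which the comparisons leave out, also held HMOX1 at a higher level in shAPC. At day 3 it was at 28.9 CPM in 346 shScr barcodes and 50.8 CPM in 245 shAPC barcodes, a relative log2 ratio of 0.68 (0.38 to 0.99). At day 7 it was at 10.2 CPM in 1052 shScr barcodes and 60.6 CPM in 1551 shAPC barcodes, 2.55 (2.29 to 2.82). In the same barcodes NQO1 had -0.46 at day 3 and 0.0062 at day 7. The positive day 7 values of ferritin did not appear there, with -0.09 (-0.09 to -0.08) for FTH1 and 0.015 for FTL, while TXNRD1 had 0.19 and SLC7A11 0.31.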

How the results depend on the processing

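With 1 library per group no replicate could be left out, and no paired analysis was possible because each group holds 1 library. HMOX1 was higher in shAPC under each of 10 alternatives per day, with relative log2 ratios of 1.41 to 1.64 at day 3 and 1.74 to 2.07 at day 7. At day 3 it was 1.63 with CPM averaged over cells and 1.64 with cells thinned to 2000 UMIs. At day 7 it was 2.07 with all barcodes, 2.05 with a mitochondrial limit of 10%, 2.07 averaged over cells and 1.996 thinned. NQO1 at day 7 was -0.44 with all barcodes and -0.47 with the 10% limit, which ended its 1.5-fold call. SLC7A11 at day 3 turned to 0.11 averaged over cells and 0.0065 thinned. At day 3 FTH1 ranged from -0.42 to -0.14 and FTL from -0.39 to -0.145, with the smallest differences averaged over cells. At day 7 FTH1 ranged from 0.21 to 0.38 and FTL from 0.32 to 0.63. The median of the other 8 members went to -0.18 (averaged over cells) and -0.29 (without the 5% deepest cells) at day 3, and to 0.012 (averaged over cells) at day 7. These ratios were not recomputed with another minimum level or pseudocount, which were varied only for the gene counts. At a minimum of 100 CPM the all-gene median they are measured from was 0.12 at day 3 and -0.14 at day 7. With no minimum it was 0.14 and 0.01, beside 0.28 and -0.10 as used.

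Counts of genes past 1.5-fold moved more. The 307 genes higher at day 3 became 524 thinned, 185 without the 5% deepest cells, 64 at a minimum of 100 CPM and 1423 with none. The 258 lower became 389 thinned and 39 at 100 CPM. At day 7 the 186 higher became 483 averaged over cells, 384 thinned, 285 with totals without mitochondrial and ribosomal genes, 36 at 100 CPM and 737 with no minimum. The 238 lower became 447, 384, 362, 55 and 792 in that order. Genes higher at both days went from 32 to 49 with the 10% limit, 61 averaged over cells, 69 thinned, 52 without mitochondrial and ribosomal totals, 3 at 100 CPM, 176 with no minimum and 21 with a pseudocount of 5 CPM. Where the minimum was changed, fewer or more genes entered, and the other causes were not tested.

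The difference in the share of cells with an HMOX1 UMI, 6.84 points at day 3 and 5.45 at day 7, scaled with depth and was 21.97 and 21.5 unthinned, 12.34 and 10.84 at 5000 UMIs, and 2.962 and 2.978 at 1000 UMIs. Leaving out cells whose barcode occurred in another library, an alternative added after seeing the data, gave 1.53 and 1.75 for HMOX1. Depth limits SRXN1, and GCLC in part.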

Other observations

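Some genes of the lists lay under 20 CPM and entered no count above, and those named here were chosen after their values were seen. SLC40A1 encodes ferroportin, the iron exporter. It had 14 UMIs in each day 3 library, and at day 7 it had 18 UMIs in shScr and 107 in shAPC, or 0.576 and 3.76 CPM, a relative log2 ratio of 2.80 (2.07 to 3.61). OSGIN1, an oxidative stress-induced growth inhibitor, was at 4.15 and 11.7 CPM at day 3, 1.22 (0.95 to 1.49), and at 4.10 and 2.74 CPM at day 7, -0.48 (-0.91 to -0.07). TRIM16L was at 7.86 and 8.79 CPM at day 3, -0.12 (-0.35 to 0.12), and at 6.95 and 13.7 CPM at day 7, 1.07 (0.83 to 1.32). It is a close paralog of TRIM16, so its counts are uncertain. TRIM16 (0.23 and 0.70), EPHX1 (0.21 and 0.69) and AKR1B10 (0.96 and 2.10) had values and intervals above 0 at both days. AKR1B10 had only 15 and 31 UMIs at day 3 and 6 and 22 at day 7. The iron gene SLC39A8 was below 0 at both days (-0.66 and -0.71). AKR1C2 and AKR1C3 were below 0 at day 7 (-1.01 and -0.97), and their day 3 intervals included 0.

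Over time, relative to the median of all genes, TXNRD1 and SLC7A11 were higher at day 7 than at day 3 in shAPC by log2 ratios of 0.68 (0.62 to 0.74) and 0.58 (0.49 to 0.67), against 0.05 (-0.01 to 0.10) and -0.14 (-0.23 to -0.05) in shScr. NQO1 had 0.03 (-0.04 to 0.10) in shAPC and 0.28 (0.22 to 0.33) in shScr. These contrasts reuse the libraries compared above and were not tested.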
